A study of Mus musculus with 12 samples.

Results

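The mitosis and G2/M genes are 44 genes for cyclins, mitotic kinases and proteins of the kinetochore, spindle and cleavage furrow, listed by name for the roles of their products. All 44 were found among the 47643 genes of the count table. Their RNA was read from 12 bulk RNA-seq. libraries of osteoclast cultures in 3 groups of 4 biological replicates. Every culture started from monocytes that were derived from bone marrow (BMMs) of BALB/c WT mice, in medium with M-CSF and RANKL, the pair of cytokines that turns monocytes into bone-resorbing osteoclasts. OCsCtr were left untreated. OCsEo received sorted eosinophils of IL-5tg/4get mice, a strain with an IL-5 transgene and abundant eosinophils, at a BMMs/Eos ratio of 1:2, and these eosinophils came from blood and bone marrow cells that had been pooled before sorting. OCsEoS received eosinophil supernatant at a 1:2 dilution. Eosinophils or supernatant were added on day 0 for 48 h, and the cultures were washed and given fresh medium on day 2. RNA was taken on day 3, which the study's methods count among the days of fully differentiated osteoclasts. The comparisons address how the transcriptome of osteoclast cultures changes on contact with eosinophils or with what they release.

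Cells enter mitosis when CDK1, bound to a B-type cyclin, is switched on by CDC25 phosphatases. Aurora and Polo-like kinases then build the spindle, kinetochores tie chromosomes to its microtubules, and the spindle checkpoint holds back the anaphase-promoting complex with its activator CDC20 until every chromosome is attached. RNAs of these proteins accumulate together in G2 and mitosis, through promoters bound by the MuvB complex with the transcription factors B-MYB and FOXM1 and by NF-Y, and monocytic osteoclast precursors are known to divide before RANKL drives them out of the cell cycle to fuse into multinucleated osteoclasts.

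Both stimulated groups had more RNA of these genes than the untreated cultures. Summed over the 44 genes, the level was 1896, 1686, 1708 and 1775 CPM (counts scaled to a library of 1000000) in the 4 OCsCtr libraries, 2668, 2442, 2436 and 2386 CPM in OCsEo and 2487, 2204, 2414 and 2682 CPM in OCsEoS. No stimulated library reached down to the highest untreated one, and OCsEo and OCsEoS overlapped. As a share of all counts, the 44 genes took 0.178% ± 0.0128 (SD, n = 4) in the untreated cultures, 0.247% ± 0.0172 in OCsEo and 0.245% ± 0.0208 in OCsEoS. In bulk RNA, more cells in division and more mitotic RNA per dividing cell cannot be told apart, and the same holds for fewer cells of another type and less RNA in each.

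The depth was even, at 27837530 to 40327869 counts per library, so that 3 counts, the limit that a count of 0 allows, came to 0.0744 to 0.108 CPM. All 44 genes passed the filter on low counts, beside 13681 genes tested in all. CPM are scaled for library composition (TMM), fold changes are log2 differences from edgeR's quasi-likelihood test with their standard errors (SE), and each adjusted p is that test's Benjamini-Hochberg value over all 13681 genes. A gene was said to rise or fall when the adjusted p was under 0.05, and was called when its log2 fold change was also beyond 0.5 in either direction. The cells carried the markers of their label, since 10 osteoclast markers such as Ctsk and Acp5 summed to 28360 to 34500 CPM in OCsCtr, and 8 of the 10 were called lower in each stimulated group, with sums of 18090 to 23210 CPM and 14940 to 22170 CPM.

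In OCsEo against OCsCtr, 17 of the 44 genes (38.6%) were called higher, beside 3.27% of all genes tested, and 0 were called lower, beside 2.61%. By the adjusted p alone 34 (77.3%) rose, beside 9.06% of all genes, and in 26 (59.1%) every OCsEo library lay above every OCsCtr library, beside 10.5%. All 44 fold changes were above 0, with a median of 0.49 on the log2 scale and a range of 0.02 to 0.77, where the median of all genes tested was -0.007. In OCsEoS against OCsCtr, 18 (40.9%) were called higher, beside 3.63% of all genes, and 0 lower, beside 4.11%. By the adjusted p alone 27 (61.4%) rose, beside 11.8%, and 24 (54.5%) had groups that did not overlap, beside 12.6%. The median was 0.44, the range -0.19 to 0.67, and 42 genes lay above 0. Both comparisons use the same 4 OCsCtr libraries and are therefore not independent of each other. DESeq2 called 20 and 18 of the 44 genes higher and 0 lower. No gene with an unadjusted p under 0.05 had a fold change below 0 in either comparison.

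**Figure D1:**
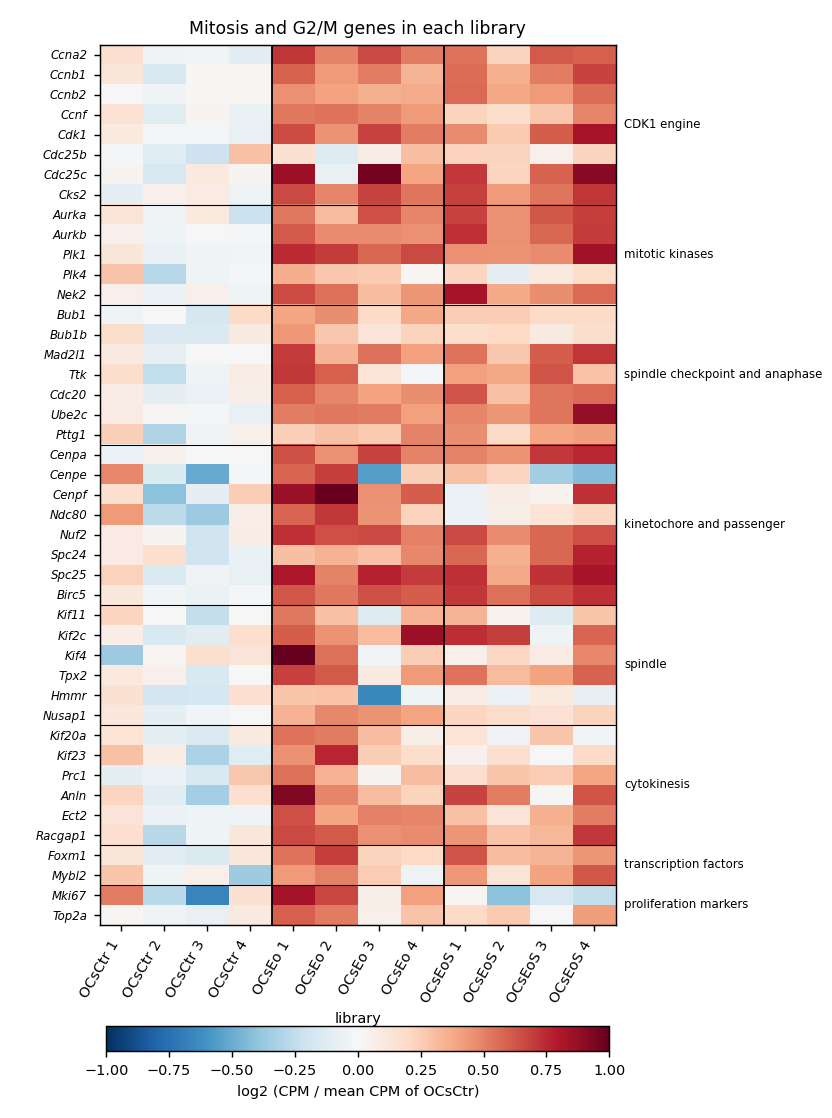
Each row is one of the 44 mitosis and G2/M genes, ordered by role, and each column a library; the colour gives the log2 ratio of the gene's CPM to its mean over the 4 OCsCtr libraries, with red above and blue below it. The OCsEo and OCsEoS columns are red for most genes, while Cenpe, Mki67 and Hmmr change colour between libraries of the same group.

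The number of calls depended on single libraries. In OCsEo the count of 17 became 9 without the library OCsCtr 2 and 10 without OCsEo 1, and in OCsEoS the count of 18 became 10 without OCsEoS 4. The median fold change moved less, between 0.43 and 0.52 in OCsEo and between 0.40 and 0.49 in OCsEoS when each library was left out in turn.

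Among the promoters of these genes, short motifs of G2/M transcription were common. RefSeq promoters on GRCm38.p6, from 250 bases before the start of transcription to 50 after it, were matched for 37 of the 44 genes, with 39 starts since Ect2 and Prc1 have a pair each. The cell cycle gene homology region (CHR), the site of the MuvB complex, was searched as TTTGAA or TTCGAA, and the site of NF-Y as CCAAT, both on either strand, and the ends of the 2 motifs can share letters. CHR letters were in 28 of the 39 promoters (71.8%), beside 19.2% of all 32851 promoters in the table and 14% of those of the genes tested here. Within 50 bases of the start, they were in 66.7% of the promoters of the mitosis genes and in 3.59% of those of genes tested. CCAAT was in 74.4% beside 37.5%, at least 2 copies of it in 51.3% beside 13.9%, and both motifs in 64.1% beside 5.67%. E2F letters (TTCCCGCC, TTTCGCGC or TTTCCCGC on either strand, which overlap one another), in contrast, were in 2.56% beside 5.49%. A match is a description of letters and not a bound site. The promoters of Cdc20, Plk1, Ccnb2 and Ccnb1 are shown because they hold these motifs in different arrangements in genes that rose in both stimulated groups, and capitals mark CHR and CCAAT letters of either strand.
Cdc20, chr4:118437294-118437593, minus strand: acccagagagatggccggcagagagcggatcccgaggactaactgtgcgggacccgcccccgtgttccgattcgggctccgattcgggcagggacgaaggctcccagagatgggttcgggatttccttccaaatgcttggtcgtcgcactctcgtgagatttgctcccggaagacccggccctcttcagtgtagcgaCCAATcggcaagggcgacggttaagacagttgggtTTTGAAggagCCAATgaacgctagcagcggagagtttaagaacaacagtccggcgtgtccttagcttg
Plk1, chr7:122159185-122159484, plus strand: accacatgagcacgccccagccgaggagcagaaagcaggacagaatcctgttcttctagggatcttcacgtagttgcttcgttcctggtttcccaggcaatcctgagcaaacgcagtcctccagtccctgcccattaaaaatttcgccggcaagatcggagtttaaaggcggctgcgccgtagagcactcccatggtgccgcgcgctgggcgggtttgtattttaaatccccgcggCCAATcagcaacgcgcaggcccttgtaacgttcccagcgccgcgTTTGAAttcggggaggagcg
Ccnb2, chr9:70421505-70421804, minus strand: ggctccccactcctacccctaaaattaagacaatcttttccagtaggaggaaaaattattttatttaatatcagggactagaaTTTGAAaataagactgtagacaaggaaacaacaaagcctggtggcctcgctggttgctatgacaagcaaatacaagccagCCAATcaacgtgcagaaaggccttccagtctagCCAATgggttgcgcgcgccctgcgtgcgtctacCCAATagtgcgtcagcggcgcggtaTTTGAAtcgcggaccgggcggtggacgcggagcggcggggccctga
Ccnb1, chr13:100786437-100786736, minus strand: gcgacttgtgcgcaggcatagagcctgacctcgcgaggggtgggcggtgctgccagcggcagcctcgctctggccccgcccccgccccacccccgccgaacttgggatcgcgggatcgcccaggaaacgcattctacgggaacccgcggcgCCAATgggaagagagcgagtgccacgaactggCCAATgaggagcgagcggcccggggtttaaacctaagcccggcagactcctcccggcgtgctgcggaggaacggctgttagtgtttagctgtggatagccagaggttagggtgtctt
Cdc20 has CHR letters that begin 18 bases before the start, between CCAAT copies 53 and 8 bases before it. In Plk1 the CHR letters begin 30 bases after the start and CCAAT 14 bases before it. Ccnb2 has 3 CCAAT copies, at 87, 54 and 21 bases before the start, and CHR letters 4 bases after it and again 167 bases before it. Ccnb1 has CCAAT 99 and 67 bases before the start and neither of the CHR forms searched in this window. Across the 37 genes, the 26 with CHR letters had a median log2 fold change of 0.50 in OCsEo and 0.31 in OCsEoS, and the 11 without had 0.47 and 0.53, so the presence of the letters did not order the genes in the same way in both comparisons.

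The CDK1 engine comprises the cyclins A2, B1, B2 and F, the kinase CDK1 with its small subunit CKS2, and the CDC25 phosphatases that activate it. Of these 8 genes, 7 rose in both stimulated groups, all but Cdc25b, and 4 were called in OCsEo and 5 in OCsEoS. Cdk1 (chr10:69336635-69352938 on GRCm38) was at 116, 107, 108 and 104 CPM in OCsCtr, at 172, 148, 174 and 155 CPM in OCsEo and at 151, 130, 165 and 192 CPM in OCsEoS. Each stimulated library was above each untreated one, and OCsEoS spread most widely. Its log2 fold change was 0.58 (SE 0.09, edgeR adjusted p = 0.000214) in OCsEo and 0.55 (SE 0.09, adjusted p = 0.000209) in OCsEoS. Ccnb1 (chr13:100778650-100786570), for the cyclin B1 that commits the cell to mitosis, was at 113, 93.7, 105 and 105 CPM in OCsCtr, at 157, 140, 149 and 132 CPM in OCsEo and at 154, 134, 149 and 167 CPM in OCsEoS. The groups did not overlap with OCsCtr here either, and the fold changes were 0.47 (SE 0.08, edgeR adjusted p = 0.000282) and 0.53 (SE 0.08, adjusted p = 6.63e-05).

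Ccna2, which encodes the cyclin of S phase and G2, had the largest fold change of this role in OCsEo, at 0.60 (SE 0.08, edgeR adjusted p = 6.76e-05), with 98.5 to 119 CPM in OCsCtr and 150 to 175 CPM in OCsEo. In OCsEoS, at 124 to 163 CPM, its fold change was 0.50 (SE 0.08, adjusted p = 0.000254). Cks2 was at 45.0 to 50.6 CPM in OCsCtr, 67.2 to 76.7 CPM in OCsEo and 64.3 to 78.8 CPM in OCsEoS, and rose by 0.59 (SE 0.08) in both, with adjusted p of 3.9e-05 and 2.88e-05. Cdc25c, the phosphatase that releases CDK1 at mitotic entry, was low, at 6.94 to 8.30 CPM in OCsCtr. Its libraries reached 14.1, 7.36, 15.1 and 10.2 CPM in OCsEo, of which OCsEo 2 stayed within the untreated range, and 12.7, 9.001, 11.7 and 14.6 CPM in OCsEoS. Its fold changes of 0.59 and 0.63 had an SE of 0.19 each (edgeR adjusted p = 0.0396 and 0.0237). Cdc25b was at 27.4 to 38.8 CPM in OCsCtr, 28.9 to 39.0 CPM in OCsEo and 32.7 to 37.0 CPM in OCsEoS, groups that overlapped, with fold changes of 0.11 and 0.18 (SE 0.11 each, adjusted p = 0.576 and 0.264). Cyclin genes Ccnb2 and Ccnf rose by 0.29 to 0.50 and were called in neither group. In OCsEo, Ccnb1 was called without OCsCtr 1 or OCsEo 4 (0.51 each) and Ccnf without OCsCtr 1, OCsCtr 3 or OCsEo 4 (0.51 to 0.55), and in OCsEoS Ccnb2 without OCsEoS 2 or OCsEoS 3 (0.52 and 0.51). Other calls near the threshold ended when some libraries were left out. In OCsEoS these were Ccna2 (lowest at 0.46, without OCsCtr 4; also without OCsCtr 2 or 3 or OCsEoS 1, 3 or 4, at 0.47 to 0.50), Ccnb1 (0.49 without OCsCtr 2, 0.48 without OCsEoS 4) and Cdk1 (0.46 without OCsEoS 4), all with adjusted p that still passed. Cdc25c no longer passed in OCsEo without any 1 of the OCsCtr libraries, OCsEo 1 or OCsEo 3 (adjusted p of 0.0634 to 0.161), and in OCsEoS without OCsCtr 2, OCsEoS 1 or OCsEoS 4 (0.0525 to 0.0832).

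Of the 5 mitotic kinase genes, 4 rose in both stimulated groups, and only Plk4 did not pass the test in either. Plk1 (chr7:122159439-122169873), the Polo-like kinase that acts from mitotic entry to cytokinesis and whose promoter is printed above, was at 40.8, 35.7, 36.6 and 36.9 CPM in OCsCtr, at 63.0, 61.0, 55.8 and 59.3 CPM in OCsEo and at 51.5, 51.2, 52.1 and 67.2 CPM in OCsEoS. All 8 stimulated libraries lay above all untreated ones, and OCsEoS 4 stood above the other 3 of its group. The fold changes were 0.67 (SE 0.09, edgeR adjusted p = 3.88e-05) in OCsEo, the largest of the kinases there, and 0.57 (SE 0.09, adjusted p = 0.00014) in OCsEoS. Aurka, the kinase of the spindle poles, was at 66.9, 59.6, 65.3 and 52.6 CPM in OCsCtr, at 88.2, 76.1, 95.7 and 85.6 CPM in OCsEo and at 97.6, 84.0, 93.8 and 98.8 CPM in OCsEoS. It did not overlap with OCsCtr in either group, with 0.50 (SE 0.09, adjusted p = 0.000457), just under the threshold for a call, and 0.61 (SE 0.09, adjusted p = 4.86e-05). Aurkb, the kinase of the chromosomal passenger complex that corrects faulty attachments, was at 45.6, 42.6, 44.1 and 43.3 CPM in OCsCtr, at 67.0, 60.9, 61.0 and 60.2 CPM in OCsEo and at 72.9, 60.3, 65.5 and 71.1 CPM in OCsEoS. Its untreated libraries were tightly grouped, and the fold changes were 0.50 (SE 0.07, edgeR adjusted p = 0.000103), just over the threshold, and 0.62 (SE 0.07, adjusted p = 1.12e-05), the largest of the kinases in OCsEoS. Nek2, a centrosome kinase, was at 32.9 to 35.5 CPM in OCsCtr, 42.5 to 53.8 CPM in OCsEo and 44.6 to 60.6 CPM in OCsEoS, with 0.50 (SE 0.10, adjusted p = 0.0013), not called, and 0.57 (SE 0.10, adjusted p = 0.000264). Plk4, which starts centriole duplication, was at 13.7 to 20.3, 16.9 to 21.4 and 15.6 to 19.3 CPM in the 3 groups, with fold changes of 0.24 (SE 0.12, adjusted p = 0.213) and 0.11 (SE 0.12, adjusted p = 0.605). Aurkb in OCsEo was under the threshold without OCsCtr 2, OCsCtr 4 or OCsEo 1 (0.47 to 0.50), Plk1 in OCsEoS without OCsEoS 4 (0.47) and Nek2 in OCsEoS without OCsEoS 1 (0.48), each with an adjusted p that still passed. Aurka in OCsEo was over it without OCsCtr 1, OCsCtr 3, OCsEo 2 or OCsEo 4 (0.50 to 0.56), and Nek2 without OCsCtr 1, OCsCtr 3, OCsEo 3 or OCsEo 4 (0.51 to 0.55).

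**Figure D2:**
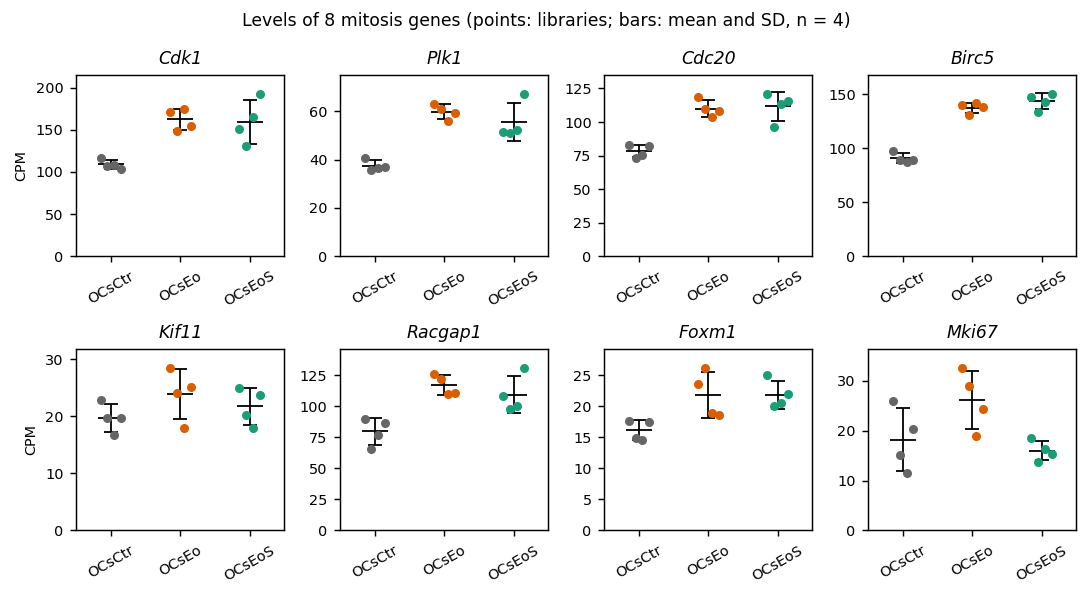
CPM (y axis, from 0) of 8 mitosis genes from different roles in the 3 groups; points are libraries, horizontal bars the mean and vertical bars the SD over 4 libraries. Cdk1, Plk1, Cdc20, Birc5, Racgap1 and Foxm1 have every stimulated library above every OCsCtr library, Kif11 overlaps in all groups, and Mki67 is lower in each OCsEoS library than in any OCsEo library.

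The spindle checkpoint and anaphase genes were higher as well, with 6 of 7 rising in OCsEo and 4 of 7 in OCsEoS. Cdc20 (chr4:118432901-118437352), the activator of the anaphase-promoting complex, was at 82.6, 73.5, 75.0 and 82.1 CPM in OCsCtr, at 118, 110, 104 and 108 CPM in OCsEo and at 121, 96.1, 114 and 116 CPM in OCsEoS. No stimulated library overlapped with OCsCtr, and the fold changes were 0.49 (SE 0.07, edgeR adjusted p = 0.000152) and 0.51 (SE 0.07, adjusted p = 7.15e-05). Ube2c, the ubiquitin-conjugating enzyme of the same complex, went from 65.9 to 73.2 CPM in OCsCtr to 92.2 to 99.8 CPM in OCsEo and 94.1 to 128 CPM in OCsEoS, with 0.49 (SE 0.08, adjusted p = 0.000372) and 0.60 (SE 0.08, adjusted p = 4.41e-05). Mad2l1, whose product is the soluble inhibitor of CDC20, was at 67.4 to 75.8 CPM in OCsCtr, 90.2 to 116 CPM in OCsEo and 86.3 to 117 CPM in OCsEoS, with 0.51 (SE 0.09, adjusted p = 0.000615) and 0.54 (SE 0.09, adjusted p = 0.000225). Bub1, a checkpoint kinase at the kinetochore, was at 28.8, 29.7, 26.5 and 34.0 CPM in OCsCtr, at 39.1, 41.0, 33.9 and 38.9 CPM in OCsEo and at 35.2, 35.3, 34.0 and 33.9 CPM in OCsEoS. It overlapped with OCsCtr in both comparisons by OCsCtr 4, and rose by 0.36 (SE 0.09, adjusted p = 0.0081) in OCsEo but did not pass in OCsEoS, at 0.22 (SE 0.09, adjusted p = 0.0912). Bub1b, which encodes the checkpoint protein BUBR1, had the smallest fold changes of this role, 0.27 (SE 0.08, adjusted p = 0.0327) and 0.16 (SE 0.09, adjusted p = 0.195), at 45.1 to 56.3, 54.7 to 67.3 and 53.1 to 57.3 CPM in the 3 groups. Pttg1, for securin, rose in both groups without a call and Ttk, for the checkpoint kinase MPS1, in neither, at 0.39 and 0.43 (SE 0.18 each). In OCsEo, Cdc20 was over the threshold without OCsCtr 1, OCsCtr 4 or OCsEo 3 (0.51 to 0.52) and Ube2c without OCsCtr 1 or OCsEo 4 (0.52 each). Mad2l1 fell under the threshold without OCsCtr 2, OCsEo 1 or OCsEo 3 (0.43 to 0.49) in OCsEo, and Bub1b no longer passed the test without OCsCtr 2, OCsCtr 3, OCsEo 1 or OCsEo 2 (adjusted p of 0.0566 to 0.13), nor Pttg1 without OCsCtr 2, OCsCtr 3 or OCsEo 4 (0.0731 to 0.109). In OCsEoS, Bub1 passed without OCsCtr 4 (adjusted p = 0.037), while Mad2l1 (0.49) and Ube2c (0.49) fell under it without OCsEoS 4, and Cdc20 without OCsCtr 2, OCsCtr 3, OCsEoS 1 or OCsEoS 4 (0.48 to 0.50).

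Kinetochore and passenger genes held the largest fold change of the 44 genes in each comparison. In OCsEo 7 of the 8 rose and 6 were called, and in OCsEoS 5 rose and all 5 were called. Birc5 (chr11:117849251-117855743), which encodes survivin of the passenger complex, was at 97.9, 89.0, 87.0 and 89.4 CPM in OCsCtr, at 140, 131, 142 and 138 CPM in OCsEo and at 148, 133, 143 and 150 CPM in OCsEoS. Its spread was small, and it had the lowest adjusted p of the 44 genes, with 0.60 (SE 0.06, edgeR adjusted p = 2.15e-06) and 0.66 (SE 0.06, adjusted p = 1.35e-06). Cenpa, the histone H3 variant that marks centromeres, was at 111, 120, 116 and 116 CPM in OCsCtr, at 180, 159, 185 and 164 CPM in OCsEo and at 164, 158, 189 and 195 CPM in OCsEoS. It did not overlap with OCsCtr either, with 0.57 (SE 0.07, adjusted p = 2.93e-05) and 0.61 (SE 0.07, adjusted p = 1.2e-05).

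The NDC80 complex, the kinetochore's grip on microtubules, has 4 subunits, of which the genes of 3, Nuf2, Spc24 and Spc25, rose in both groups. Spc25 had the largest fold change of the 44 in OCsEoS, 0.67 (SE 0.11, edgeR adjusted p = 0.000173), and 0.70 (SE 0.11, adjusted p = 0.000178) in OCsEo, from 22.9 to 29.7 CPM in OCsCtr to 35.7 to 44.4 CPM in OCsEo and 32.9 to 44.9 CPM in OCsEoS. Nuf2 went from 20.1 to 24.5 CPM to 32.7 to 38.4 CPM and 32.1 to 36.5 CPM, with 0.64 and 0.59 (SE 0.09 each, adjusted p = 9.06e-05 and 0.000127). Spc24, at 22.5 to 28.8 CPM in OCsCtr, rose by 0.36 (SE 0.10, adjusted p = 0.0185), under the threshold, and by 0.58 (SE 0.10, adjusted p = 0.000385), with a difference between the stimulated groups that did not pass (0.22, adjusted p = 0.428). The complex's namesake Ndc80 was at 13.9, 8.61, 8.01 and 10.8 CPM in OCsCtr, at 15.5, 16.9, 14.1 and 12.1 CPM in OCsEo and at 9.90, 10.7, 11.3 and 11.9 CPM in OCsEoS. All 4 OCsEoS libraries lay within the untreated range and under all OCsEo libraries. Its fold changes were 0.51 (SE 0.16, adjusted p = 0.0321) in OCsEo and 0.09 (SE 0.16, adjusted p = 0.746) in OCsEoS, and between the stimulated groups -0.42 (SE 0.16, adjusted p = 0.31), which did not pass.

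The large outer kinetochore proteins CENP-E, a motor, and CENP-F stood apart in level and in spread. Cenpf was at 4.26, 2.88, 3.59 and 4.54 CPM in OCsCtr, at 6.96, 7.92, 5.25 and 5.82 CPM in OCsEo and at 3.67, 4.02, 3.92 and 6.33 CPM in OCsEoS. The OCsEoS libraries 1 to 3 lay within the untreated range, and without OCsEoS 4 the fold change there was 0.03. It had the largest fold change of the 44 genes in OCsEo, 0.77 (SE 0.22, edgeR adjusted p = 0.0198), and 0.23 (SE 0.22, adjusted p = 0.509) in OCsEoS. Cenpe was at 9.50, 6.20, 4.80 and 6.75 CPM in OCsCtr, at 10.2, 11.01, 4.64 and 8.04 CPM in OCsEo and at 8.37, 7.90, 5.34 and 5.04 CPM in OCsEoS. Its groups overlapped throughout, at 0.32 and -0.03 (SE 0.25 each, adjusted p = 0.447 and 0.95). The calls of this role that rested on single libraries in OCsEo were those of Ndc80 (adjusted p of 0.0515 to 0.116 without OCsCtr 2, 3 or 4 or OCsEo 1, 2 or 3) and Cenpf (0.0504 to 0.069 without OCsCtr 2, OCsCtr 3, OCsEo 1 or OCsEo 2). Spc24 in OCsEo no longer passed without OCsCtr 3, OCsCtr 4 or OCsEo 4 (0.0545 to 0.0726). Those of Birc5, Cenpa, Nuf2 and Spc25 stood in both groups under each of the 18 alternatives examined.

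**Figure D3:**
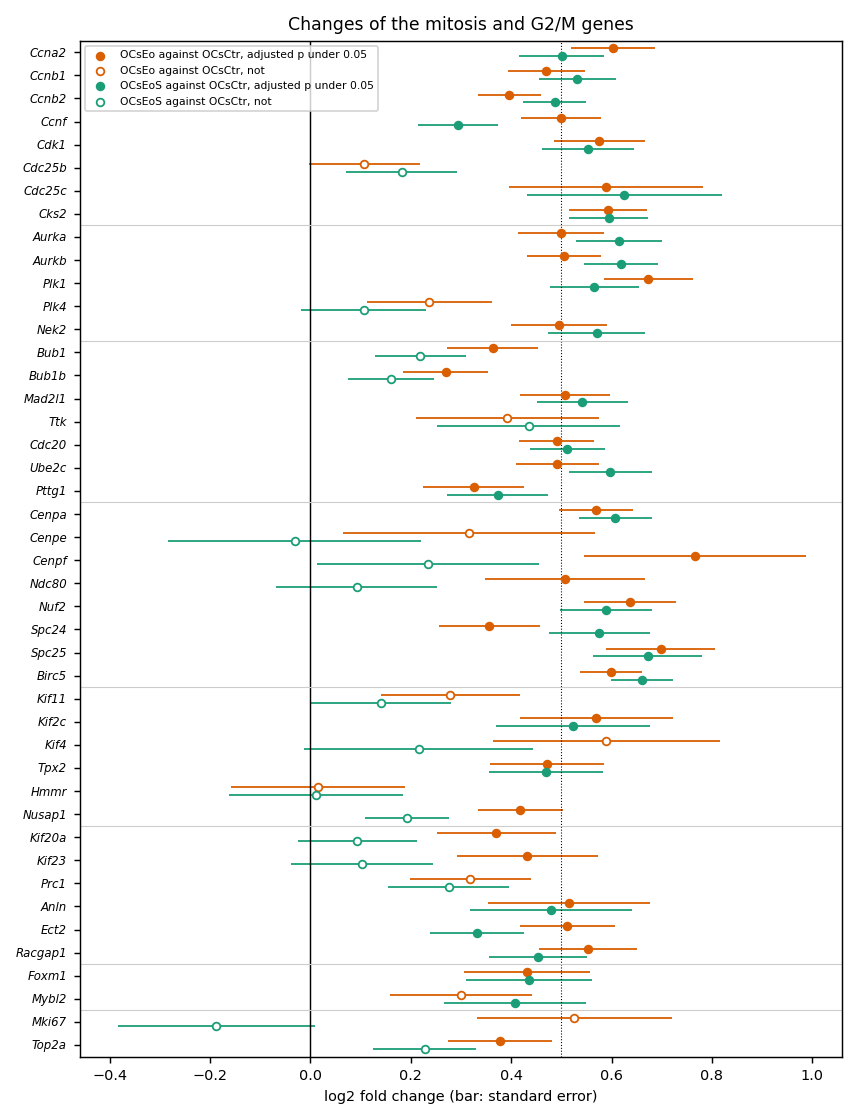
Log2 fold change (x axis) of each of the 44 genes against OCsCtr, for OCsEo in orange and OCsEoS in green, with the SE as a bar; filled points passed an adjusted p under 0.05 and the dotted line marks 0.5. Most points lie between 0.2 and 0.7 for both stimuli, and the green points of Cenpe, Mki67, Ndc80, Kif20a and Kif23 lie to the left of the orange ones.

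Spindle genes changed less evenly, with 3 of 6 rising in OCsEo and 2 of 6 in OCsEoS. Tpx2, which carries AURKA to the spindle, was at 29.1, 28.1, 24.4 and 27.1 CPM in OCsCtr, at 43.6, 41.7, 28.9 and 36.5 CPM in OCsEo and at 39.7, 33.9, 35.9 and 41.0 CPM in OCsEoS. OCsEo 3 alone lay within the untreated range, and the fold change was 0.47 in both groups (SE 0.11 each, edgeR adjusted p = 0.00639 and 0.00495). Kif2c, the microtubule-depolymerising kinesin at centromeres, was at 14.04 to 17.5 CPM in OCsCtr, 19.3 to 28.2 CPM in OCsEo and 15.1 to 26.1 CPM in OCsEoS, with 0.57 and 0.52 (SE 0.15 each, adjusted p = 0.0129 and 0.0174), the only calls of this role. Kif11, the motor that separates the spindle poles, was at 22.9, 19.7, 16.7 and 19.7 CPM in OCsCtr, at 28.4, 24.2, 18.02 and 25.1 CPM in OCsEo and at 24.9, 20.2, 18.1 and 23.9 CPM in OCsEoS. Its groups overlapped, with 0.28 and 0.14 (SE 0.14 each, adjusted p = 0.187 and 0.53). Kif4, a chromosome-bound kinesin, had its highest level in a single library of OCsEo, with 13.5, 8.24, 5.51 and 6.65 CPM against 4.37 to 6.27 CPM in OCsCtr, and did not pass at 0.59 (SE 0.23, adjusted p = 0.0806). Without OCsEo 3 it did (0.75, adjusted p = 0.0266), and without OCsEo 1 it was at 0.27 (adjusted p = 0.409). Hmmr, a spindle-associated protein, was the flattest of the 44, at 9.05 to 11.7, 6.64 to 12.6 and 9.80 to 11.1 CPM, with 0.02 and 0.01 (SE 0.17 each). Without OCsEo 4, Kif2c in OCsEo was at 0.46 (adjusted p = 0.055), and in OCsEoS it was under the threshold without OCsCtr 2, OCsCtr 3, OCsEoS 1 or OCsEoS 2 (0.45 to 0.49), and without OCsCtr 2 or OCsEoS 1 it did not pass the test either (adjusted p = 0.0526 and 0.0586). Kif11 in OCsEo passed without OCsEo 3 alone (adjusted p = 0.0497), and Tpx2 was called without OCsCtr 1 or OCsEo 3 in OCsEo (0.50 and 0.58) and without OCsEoS 2 in OCsEoS (0.52).

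For cytokinesis, 5 of 6 genes rose in OCsEo, 3 of them called, and 3 of 6 in OCsEoS, each under the threshold for a call. Anln, the scaffold of the cleavage furrow, was at 25.8, 20.5, 17.5 and 24.9 CPM in OCsCtr, at 42.1, 31.1, 27.4 and 25.9 CPM in OCsEo and at 35.4, 31.7, 22.3 and 34.3 CPM in OCsEoS. OCsEo lay above OCsCtr by a narrow margin and OCsEoS 3 did not, with 0.51 and 0.48 (SE 0.16 each, edgeR adjusted p = 0.0315 and 0.0369). Ect2, the exchange factor that activates RhoA at the furrow, was at 30.1, 26.4, 26.7 and 26.8 CPM in OCsCtr, at 43.0, 36.1, 39.0 and 38.6 CPM in OCsEo and at 33.7, 29.98, 35.2 and 39.3 CPM in OCsEoS. Its OCsEo libraries were well clear of OCsCtr while OCsEoS 2 was level with OCsCtr 1, with 0.51 (SE 0.09, adjusted p = 0.000844) and 0.33 (SE 0.09, adjusted p = 0.0147). Racgap1, the partner of ECT2 in centralspindlin, went from 65.7 to 89.7 CPM to 110 to 126 CPM and 97.5 to 131 CPM, with 0.55 and 0.45 (SE 0.10 each, adjusted p = 0.000598 and 0.00209). Prc1, the crosslinker of midzone microtubules, was at 18.2, 18.6, 17.4 and 23.4 CPM in OCsCtr, at 28.4, 24.6, 19.7 and 23.97 CPM in OCsEo and at 21.8, 23.5, 23.1 and 25.5 CPM in OCsEoS. OCsCtr 4 lay inside both stimulated groups, and the gene did not pass at 0.32 and 0.28 (SE 0.12 each, adjusted p = 0.0744 and 0.108). Without OCsCtr 4 it passed in both (adjusted p = 0.025 and 0.0368), and without OCsEo 3 in OCsEo (0.0264). Kif20a, a kinesin of the midzone, was at 18.3 to 22.3, 21.2 to 29.6 and 19.8 to 24.6 CPM, with 0.37 (SE 0.12, adjusted p = 0.0348) and 0.09 (SE 0.12, adjusted p = 0.639). In OCsEo, the call of Anln was lost without OCsCtr 2, OCsCtr 3 or OCsEo 1 (0.35 to 0.48), that of Ect2 without OCsCtr 2, OCsCtr 4 or OCsEo 1 (0.46 to 0.50) and that of Racgap1 without OCsCtr 2 (0.48). Kif20a did not pass there without OCsCtr 2, OCsCtr 3 or OCsEo 1, 2 or 3 (adjusted p of 0.0506 to 0.12). Kif23, the other centralspindlin subunit, rose by 0.43 (SE 0.14, adjusted p = 0.0384). It did not pass without OCsCtr 2, 3 or 4 or OCsEo 1 or 2 (0.0588 to 0.154), but it was called without OCsCtr 1 or OCsEo 4 (0.54 and 0.51). In OCsEoS, Anln did not pass without OCsCtr 2, OCsCtr 3 or OCsEoS 1, 2 or 4 (0.06 to 0.118) and was called without OCsCtr 1, OCsCtr 4 or OCsEoS 3 (0.54 to 0.61). Ect2 did not pass without OCsEoS 4 (0.0582), and Racgap1 was called without OCsCtr 1 or OCsEoS 2 (0.50 and 0.51).

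Of the transcription factors of the G2/M programme, Foxm1 rose in both stimulated groups and Mybl2 in OCsEoS. Foxm1 was at 17.6, 14.9, 14.6 and 17.5 CPM in OCsCtr, at 23.6, 26.2, 18.9 and 18.6 CPM in OCsEo and at 25.1, 20.03, 20.5 and 22.0 CPM in OCsEoS. Neither stimulated group overlapped with OCsCtr, and the fold changes were 0.43 and 0.44 (SE 0.13 each, edgeR adjusted p = 0.0214 and 0.016). Mybl2, which encodes B-MYB, was at 22.5, 18.01, 19.2 and 14.6 CPM in OCsCtr, at 24.9, 26.3, 22.1 and 17.9 CPM in OCsEo and at 25.1, 20.3, 24.5 and 28.6 CPM in OCsEoS. It overlapped with OCsCtr in both, with 0.30 (SE 0.14, adjusted p = 0.163) and 0.41 (SE 0.14, adjusted p = 0.0438). Foxm1 did not pass in OCsEo without OCsCtr 2, OCsCtr 3, OCsEo 1 or OCsEo 2 (adjusted p of 0.0646 to 0.0825) or in OCsEoS without OCsCtr 3 or OCsEoS 1 (0.0511 and 0.0557). Mybl2 did not pass in OCsEoS without any 1 of OCsCtr 2, 3 or 4 or OCsEoS 1, 3 or 4 (0.0659 to 0.155). It was called without OCsCtr 1 (0.50, adjusted p = 0.0201).

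Of the general proliferation markers, Mki67 had the lowest fold change of the 44 in OCsEoS. This gene of the Ki-67 protein, which coats mitotic chromosomes, was at 26.0, 15.2, 11.5 and 20.3 CPM in OCsCtr, at 32.5, 29.0, 19.0 and 24.2 CPM in OCsEo and at 18.4, 13.8, 16.4 and 15.4 CPM in OCsEoS. The OCsEoS libraries all lay within the untreated range and under every OCsEo library, and the untreated libraries themselves differed more than 2-fold. Its fold changes were 0.53 (SE 0.19, edgeR adjusted p = 0.0699) in OCsEo, -0.19 (SE 0.20, adjusted p = 0.555) in OCsEoS and -0.71 (SE 0.20, adjusted p = 0.126) between the stimulated groups. The call between OCsEoS and OCsEo changed with the method, since DESeq2 gave an adjusted p of 0.0218 at -0.71 and edgeR on the 2 groups alone 0.0413, and it lay between 0.056 and 0.286 when each library was left out. In OCsEo against OCsCtr it was called by DESeq2 (0.53, adjusted p = 0.029) and by edgeR without the filter on low counts (0.52, adjusted p = 0.00528). It was also called without OCsCtr 1 (0.74, adjusted p = 0.0107) or OCsEo 3 (0.65, adjusted p = 0.0306). Without OCsCtr 3 it was at 0.36 (adjusted p = 0.212). Top2a, the topoisomerase that untangles replicated chromosomes, was at 61.0, 59.1, 57.7 and 64.7 CPM in OCsCtr, at 91.7, 86.9, 62.8 and 73.8 CPM in OCsEo and at 69.5, 72.5, 60.9 and 81.0 CPM in OCsEoS. OCsEo 3 and OCsEoS 3 lay within the untreated range, and the gene rose by 0.38 (SE 0.10, adjusted p = 0.0142) in OCsEo but not in OCsEoS, at 0.23 (SE 0.10, adjusted p = 0.123). Without OCsEo 1 it did not pass in OCsEo either (adjusted p = 0.0643).

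Set directly against each other, OCsEoS and OCsEo differed in none of the 44 genes past the threshold of edgeR's test. The counts called were 0 higher, beside 0.0731% of all genes tested, and 0 lower, beside 0.307%, and the lowest adjusted p was the 0.126 of Mki67. In 8 genes there was an unadjusted p under 0.05, beside 11.1% of all genes, and DESeq2 called Mki67 alone, as lower. The median fold change was -0.03 and the range -0.71 to 0.22. In Ndc80, Mki67 and Nusap1, for a spindle-associated protein, every OCsEoS library was under every OCsEo library, beside 3.06% of all genes. The same held for 8 of 12 neutrophil and granulocyte precursor markers, whose part in these differences was not tested. Nusap1 was singled out after its values were seen, and was at -0.23 (SE 0.08, adjusted p = 0.284). All 12 spindle and cytokinesis genes had a fold change below 0 here, beside 6794 of the 13681 genes tested, from -0.37 (Kif4) up to values that round to 0. None of them passed, and the sign of the smaller values depended on single libraries. Without OCsEo 1, Tpx2, Hmmr, Prc1 and Anln were above 0 (0.03 to 0.12). Of the 8 genes of the CDK1 engine, 5 were above 0 in the main fit.

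On the scale of CPM per kilobase of gene length, the 44 genes spanned a wide range. The length is the one given with the counts and can differ from that of the transcripts expressed here, so the order between genes is approximate. Cks2 was highest, at a mean of 69.2 CPM per kilobase in OCsCtr, 104.4 in OCsEo and 104.5 in OCsEoS, followed by Ccnb2 (45.8, 60.3 and 64.2), Cdc20 (41.9, 58.9 and 59.8) and Cdk1 (31.6, 47.1 and 46.4). The lowest were Cenpf (0.247, 0.42 and 0.29) and Cenpe (0.79, 0.982 and 0.773).

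Gene length moved with the fold changes in OCsEoS. Over the 44 genes, Spearman's rho between length and log2 fold change was -0.42 in OCsEoS and -0.08 in OCsEo, beside -0.24 and -0.19 over the 13681 genes tested, as a description across genes that share the same libraries. In OCsEoS the 22 shorter genes (692 to 4275 bases) had a median of 0.52 with 13 called and the 22 longer genes (4354 to 15433 bases) one of 0.37 with 5 called. In OCsEo the medians were 0.50 and 0.48, with 9 and 8 called. The libraries themselves differed by length over all genes. The median log2 level of genes of at least 6000 bases less that of genes up to 2000 bases, centred for each gene, was 0.08 to 0.23 in OCsCtr, -0.24 to 0.07 in OCsEo and -0.20 to -0.04 in OCsEoS. After each library's trend on length had been removed, a fit that was added once the data had been seen, the medians of shorter and longer genes were 0.47 and 0.46 in OCsEoS with 9 called each, and 0.45 and 0.51 in OCsEo with 6 and 11 called. In that fit Mki67 passed in OCsEo, at 0.65 (edgeR adjusted p = 0.0157), Top2a passed in OCsEoS (adjusted p = 0.00388), and Cks2, Plk1, Cdc20 and Spc24 fell under the threshold for a call in OCsEoS, at 0.42 to 0.50.

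**Figure D4:**
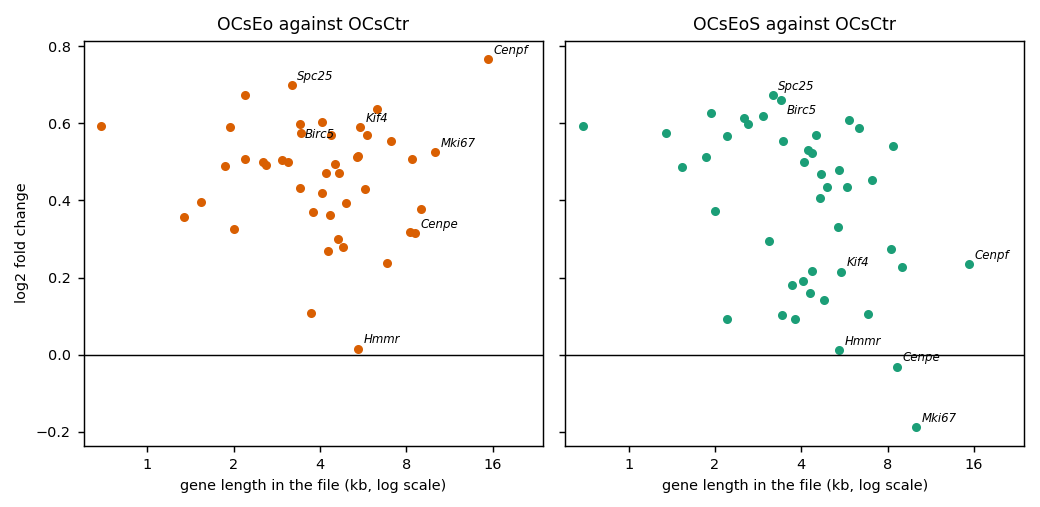
Log2 fold change against OCsCtr (y axis) of the 44 genes by gene length in kilobases (x axis, log scale), for OCsEo on the left and OCsEoS on the right; each point is a gene. In OCsEoS the shorter genes have a median of 0.52 and the longer ones 0.37, and Mki67 and Cenpe lie at or under 0, whereas in OCsEo the medians are 0.50 and 0.48.

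Other genes of the cell cycle, taken from lists by function, rose alongside in part. Of all genes tested, 9.06% rose in OCsEo and 11.8% in OCsEoS, and 3.27% and 3.63% were called higher. DNA replication genes had a median of 0.42 in OCsEo and 0.49 in OCsEoS, with 27 and 28 of 37 rising and 11 and 17 called. Chaf1b, for a subunit of a histone chaperone of replicating DNA, fell by 0.32 in OCsEo (edgeR adjusted p = 0.017). The list includes Tyms, for thymidylate synthase (60.03, 93.2 and 100.2 CPM on average in OCsCtr, OCsEo and OCsEoS), Pcna, the sliding clamp of DNA polymerase (308, 471 and 492 CPM), Cdc6, which licenses origins (9.80, 15.6 and 15.4 CPM), and Ccne1, the cyclin of S phase entry (17.5, 24.9 and 28.1 CPM). The fold changes of Tyms were 0.64 and 0.74 (SE 0.09 each, edgeR adjusted p = 5.88e-05 and 1.12e-05), so that the rise was not limited to genes of G2 and mitosis. Of 35 other centromere and kinetochore genes, 14 rose in OCsEo with 5 called and 19 in OCsEoS with 10 called, at medians of 0.38 each. Ska1, of the complex that couples kinetochores to microtubule ends, was at 0.69 (SE 0.14, adjusted p = 0.00186) and 0.80 (SE 0.14, adjusted p = 0.000368), and Cenpp, of the inner kinetochore, at 0.90 (SE 0.15, adjusted p = 0.000315) and 0.77 (SE 0.15, adjusted p = 0.000787). Among 45 other spindle and cytokinesis genes, 24 and 25 rose and 18 and 13 were called, and Pimreg, a mitotic regulator at means of 18.3, 35.8 and 35.0 CPM in OCsCtr, OCsEo and OCsEoS, led with 0.97 and 0.94 (SE 0.11 each, adjusted p = 6.18e-06 and 9.23e-06).

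Other complexes that act in mitosis had smaller medians. For condensin and cohesin, 4 of 21 genes rose in OCsEo with Cdca5 called, and in OCsEoS 3 rose with Ncaph called, while 3 fell with Nipbl called, at medians of 0.18 and 0.03. Over all 13681 genes tested, 1239 rose and 1143 fell in OCsEo, and 1620 rose and 1531 fell in OCsEoS. The OCsEoS counts of condensin and cohesin were near these shares. Of 17 genes of the anaphase-promoting complex, 5 rose in each group with fold changes under the threshold, at a median of 0.09 in both, in contrast to its activator Cdc20 and its enzyme Ube2c above. Among 8 G1 cyclins and kinases, 4 and 3 rose and Ccnd1, for cyclin D1, was called in both, from a mean of 66.8 CPM in OCsCtr to 111 and 129 CPM (0.73 and 0.95, SE 0.14 each, edgeR adjusted p = 0.0013 and 9.23e-05). Of 10 CDK inhibitors, 2 rose in OCsEo and 3 in OCsEoS, and Ccng1, the cyclin G1 gene kept in this list, fell in both (by 0.23 each). Cdkn2d, for p19, was called in both at 0.65 and 0.74 (SE 0.09 each, adjusted p = 5.86e-05 and 1.42e-05), and Cdkn1c, for p57, only in OCsEo at 1.00 (SE 0.26, adjusted p = 0.0101), with a difference between OCsEoS and OCsEo of -1.21 (SE 0.26, adjusted p = 0.0347). Of 18 genes for E2F factors, pocket proteins and MuvB subunits, 4 and 5 rose, with E2f1 called in both (0.55 and 0.58, SE 0.08 each, adjusted p = 0.000163 and 6.69e-05) and E2f2 in OCsEoS.

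**Figure D5:**
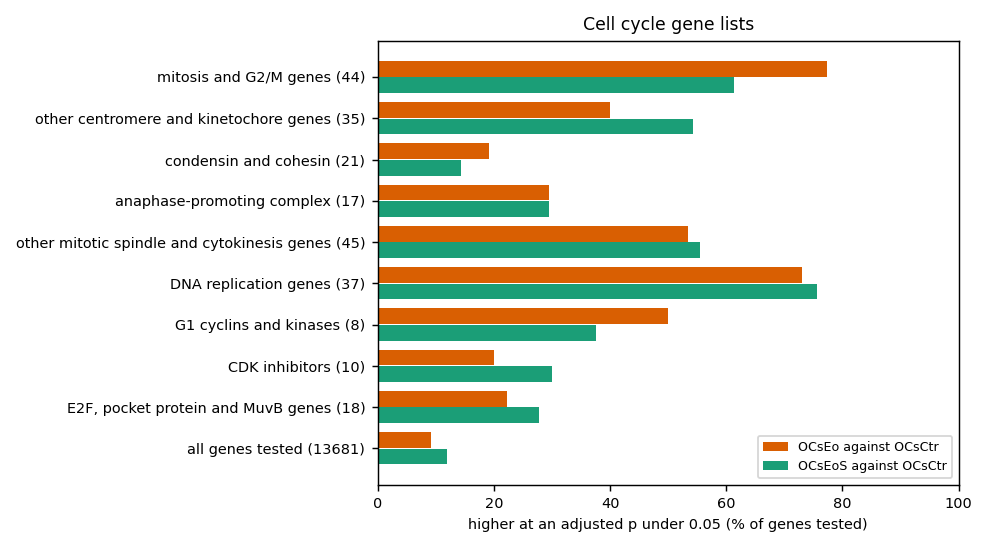
Share of the genes tested in each cell cycle list (number of genes in parentheses) that were higher than in OCsCtr at an adjusted p under 0.05, for OCsEo in orange and OCsEoS in green. The mitosis and G2/M genes are at 77.3% and 61.4%. DNA replication genes are close to them in OCsEo (27 of 37) and above them in OCsEoS (28 of 37). The anaphase-promoting complex, condensin and cohesin are nearer to the 9.06% and 11.8% of all genes tested.

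Markers of other cells were read beside these changes. Eosinophil markers (10 genes) summed to 57.1 to 73.7 CPM in OCsCtr, 60.1 to 82.2 CPM in OCsEo and 49.3 to 55.5 CPM in OCsEoS, mostly from Ccr3, and the granule genes Epx, Prg3, Ear1 and Ear6 were at 0 in all OCsEoS libraries. In OCsEo, Epx was at most at 0.478 CPM. Of the 5 eosinophil markers tested, Siglecf (2.94 against 0.428 CPM on average in OCsCtr) and Alox15 (10.98 against 0.3 CPM) were called higher. Ccr3 fell by 0.29 (edgeR adjusted p = 0.0164), and Prg2 and Ear2 did not pass. In OCsEoS, Prg2 was called lower (0.815 against 5.53 CPM) and Ccr3 fell by 0.23 (adjusted p = 0.0442). Neutrophil and granulocyte precursor markers (12 genes) summed to 339 to 481, 488 to 671 and 380 to 453 CPM. In OCsEo all 12 had a fold change above 0, at a median of 0.43 and a range of 0.30 to 1.00. Of these, 6 rose, beside 9.06% of all genes tested. There were 4 called higher, beside 3.27%, among them Elane, Ctsg and Ms4a3. In OCsEoS, 8 of the 12 had a fold change below 0, at a median of -0.05 and a range of -0.56 to 0.40. Between OCsEoS and OCsEo all 12 lay below 0, at a median of -0.60, with every OCsEoS library under every OCsEo library for 8 of them and Mpo, Ltf and Ngp called lower. The part of neutrophils and granulocyte precursors in the levels of the mitosis genes was not tested. Progenitor markers (6 genes) summed to 20.1 to 30.4, 17.4 to 27.7 and 24.1 to 29.5 CPM, and B cell, T and NK cell, mast cell and erythroid markers to at most 22.2 CPM in any library.

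Within each group, single libraries were often the highest or the lowest across the 44 genes. OCsCtr 1 was the highest of its group in 31 of the 44 genes, OCsEo 1 in 23 and OCsEoS 4 in 24, and OCsEoS 2 was the lowest of its group in 28. In contrast, OCsEo 2 was the highest of its group in 11 and the lowest in 11. These counts were not taken over all genes tested, so they are not read as a trait of the mitosis genes. The mean log2 difference of the 44 genes from their OCsCtr mean was 0.13, -0.08, -0.09 and 0.04 in the OCsCtr libraries, 0.60, 0.48, 0.34 and 0.38 in OCsEo and 0.42, 0.27, 0.33 and 0.49 in OCsEoS. The lowest stimulated library thus stood 0.14 above the highest untreated one on this scale. For 5 of the 44 genes, a gene that overlaps in the genome on the opposite strand reached 10% or more of their CPM. On average over all libraries, Elovl1 (274.4 CPM) was above Cdc20 (100 CPM) and Pdzd11 (37.16 CPM) above Kif4 (6.878 CPM). Cdc23 (31.66 CPM) was likewise above Kif20a (22.75 CPM). Exosc9 (38.84 CPM) was below Ccna2 (139.7 CPM), and Oip5 (11.59 CPM) below Nusap1 (28.28 CPM). The sources used here do not give the strand setting of the counting, so that reads of such pairs may be mixed.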

How the data were processed

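RNA of 12 osteoclast cultures was sequenced as paired-end libraries. Per the labels and the study's methods, the authors cleaned the reads with fastp, aligned them with HISAT2 2.0.5 to GRCm38 and counted them per gene with featureCounts. The annotation release and strand setting are not given in the sources used here. The deposited values are raw counts per gene, of which 27440 of 47643 genes were at 0 in every library.

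Counts were analysed with edgeR 4.0.16 in R 4.3.3 (TMM scaling, filterByExpr with a minimum count of 10, 1 quasi-likelihood fit of all 12 libraries in 3 groups). Adjusted p-values are Benjamini-Hochberg values over 13681 genes, and calls also needed an absolute log2 fold change over 0.5, the threshold of the study's methods. The fit was tested on simulated data. Replicates are numbered in the labels, and p-values measure the spread between these samples only. No pair of libraries of a group agreed within sampling noise. Depths of 27837530 to 40327869 counts set the precision, and limits from counts of 0 cover counting error only.

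The members and all gene lists were chosen with earlier results of these data known. Values were given for 20 members listed by name, for those with the highest and lowest fold change of each role and for all called members, and in the other lists for at most 4 called genes with the largest change. Gene positions, lengths and overlaps come from the annotation given with the deposited counts, on GRCm38. GC content comes from GENCODE transcripts, and promoters from RefSeq on GRCm38.p6. Alternatives were DESeq2 1.42.0, its size factors, upper-quartile scaling, other filters (none, or 10 counts in every library), a replicate block, a fit of 2 groups, thinning to the smallest library, other fold thresholds and leaving out each library. Fits with the trend on gene length or GC content taken out were chosen after seeing the data.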

Additional observations from a re-analysis of the deposited data

Results flagged for a closer look

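In 6 of the 132 sets of 4 libraries (44 genes in 3 groups), 1 library stood apart from the other 3 by Dixon's criterion, which chance alone meets in about 1 in 20 sets. Plk1 was at 67.2 CPM in OCsEoS 4 against 51.2 to 52.1 CPM in the others of its group, and Cenpf was at 6.33 CPM in the same library against 3.67 to 4.02 CPM. Aurkb was at 67.0 CPM in OCsEo 1 against 60.2 to 61.0 CPM. Ect2 was at 30.1 CPM in OCsCtr 1 against 26.4 to 26.8 CPM. Cdc25b was at 32.7 CPM in OCsEoS 3 against 36.8 to 37.1 CPM, and Ube2c at 92.2 CPM in OCsEo 4 against 98.7 to 99.8 CPM.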

How the results depend on the processing

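The medians kept their direction in OCsEo and OCsEoS against OCsCtr under all alternatives, and no member was called lower in either. When each library was left out in turn, 9 to 25 members were called in OCsEo, with 9 without OCsCtr 2 and 10 without OCsEo 1, and 10 to 21 in OCsEoS, with 10 without OCsEoS 4. In OCsEoS against OCsEo these edgeR fits called 0 members, at medians of -0.09 to 0.01. Across the 18 alternatives in which the fit changed, 8 members were called in all for OCsEo (Ccna2, Cdk1, Cks2, Plk1, Cenpa, Nuf2, Spc25 and Birc5) and 6 for OCsEoS (Aurka, Aurkb, Cenpa, Nuf2, Spc25 and Birc5), and 22 and 20 passed the adjusted p in all. Without the fold threshold the 17 calls in OCsEo became 34, and with one of 1 they became 0, as did the 18 in OCsEoS. Between OCsEoS and OCsEo, 1 member, Mki67, was called lower by DESeq2 (adjusted p = 0.0218), without the filter (edgeR, 0.000728), in the fit of 2 groups (0.0413) and with the replicate block (0.0272). Deviations of samples with the same replicate number were at most weakly correlated (-0.04 to 0.09), though 3 of 4 numbers in each comparison matched best with their own. A weak pairing can therefore not be excluded. The main fit did not take the numbers as pairs, and the block was run as an alternative. The block moved the calls to 19 in OCsEo, where it called Mki67 (0.55, adjusted p = 0.0114), and 17 in OCsEoS. Thinning or length correction ended calls near 0.5, among them Aurkb, Mad2l1 and Anln in OCsEo. The cause of these changes was not tested, and fits with a library left out also had fewer samples. Cenpe, Kif4 and Cenpf, all under 10 CPM on average, had the largest SE (0.22 to 0.25).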
